A study of Saccharomyces cerevisiae with 16 samples.

Results

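Nucleotides 1 to 1450 of 25S rRNA, the RNA core of the yeast large ribosomal subunit, were examined at single-nucleotide resolution for stops of reverse transcription. The region was chosen by position alone and holds 1450 of the 5704895 positions for which reads were listed. It contains 11 known pseudouridines (Ψ), at nt 776, 960, 966, 986, 990, 1004, 1042, 1052, 1056, 1110 and 1124, and the other 1946 nt of 25S rRNA contain 19. The region lies on chromosome 12 at 453733 to 455182 as deposited, with nt 1 at the higher coordinate, because 25S rRNA is read from the reverse strand. It falls within the rRNA gene RDN25-1, which RefSeq places at 451786 to 455181 with a length of 3396 nt. The deposited position of a nucleotide is 1 above its annotated coordinate. All 1450 nt had equal counts at a second listed copy of the repeat 9137 nt away, so the copies of the rDNA repeat cannot be told apart, and the first copy was used.

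Pseudouridine is an isomer of uridine in which the base is joined to the sugar through carbon. In yeast rRNA it is made by H/ACA ribonucleoprotein particles, in which a guide RNA pairs with the rRNA on both sides of the target uridine and Cbf5 carries out the isomerisation. The guides of this region are snR80 for nt 776, snR8 for nt 960 and 986, snR43 for nt 966, snR49 for nt 990, snR5 for nt 1004 and 1124, snR33 for nt 1042, snR81 for nt 1052, snR44 for nt 1056 and snR82 for nt 1110. Several of these sites lie in or beside the long helix called the A-site finger, which reaches from the central protuberance towards the small subunit. CMCT, a carbodiimide, forms an adduct with uridine, guanosine and pseudouridine. Alkali removes the adduct from the first pair but leaves it on pseudouridine, where it stops reverse transcriptase. A stop that appears with CMCT therefore marks a candidate pseudouridine, whereas a stop without CMCT can come from another modification or from the end of a fragment. One such modification in this region is the N1-methyladenosine at nt 645, which Rrp8 makes and which blocks base pairing.

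The data came from 4 experiments on strain BY4741, with 4 libraries each and 16 in all. The labels give an OD of 0.8 for cells in log phase and of 4 for cells in stationary phase, and heat-shocked cells were kept at 45 °C for 30 min. According to the methods there were 2 cultures, each sampled in log phase. One was then heat shocked and the other was grown to stationary phase, so the log-phase experiments are called here log phase before heat shock and log phase before stationary phase. In each experiment one part of the poly(A)-selected natural RNA was treated with CMCT (+CMCT) and the other was mock treated (−CMCT), and so was unmodified RNA made by transcription in vitro (IVT). The rRNA measured is therefore what remained after selection for mRNA, and the IVT RNA carried 18S and 25S transcripts that had been added to it. Each condition of an experiment had 1 library, and the experiments served as replicates of the CMCT comparison. Because they came from 2 cultures they are not fully independent.

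Natural libraries held 114976 to 735769 reads in the region, which was 1.80% to 3.24% of their listed reads. IVT libraries held 432 to 11872 reads, or 0.011% to 0.128%, so that an IVT count at 1 nucleotide was often 0 or a few reads. In natural RNA the median nucleotide had 42 to 209 reads. Within an experiment the reads were not divided evenly. In stationary phase the +CMCT library held 735769 region reads and the −CMCT library 144969, and the median log2 ratio of +CMCT to −CMCT reads at unmarked nucleotides was 2.10. It was -0.47 in log phase before heat shock, -0.27 in heat shock and 0.55 in log phase before stationary phase. Ratios were therefore centred by subtracting this median, taken over nucleotides neither known as pseudouridines nor 1 nt from one, so that a centred log2 ratio of 0 is that of a typical nucleotide of the region in the same experiment.

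All 11 known pseudouridines had more stops after CMCT treatment in natural RNA than a typical unmarked nucleotide of the region. Their median centred log2 ratio was 4.11 in log phase before heat shock, 3.26 in heat shock, 2.81 in log phase before stationary phase and 1.86 in stationary phase. All 11 lay above 0 in all 4 experiments. Over the 8 natural libraries, with the experiment as a block, the quasi-likelihood test of edgeR, with p-values adjusted by Benjamini-Hochberg over 111579 positions, called all 11 higher, with adjusted p-values from 8.4e-13 to 0.0046. Of all positions tested, 3.06% were called higher and 0.593% lower. In the region 1433 of the 1450 nt were tested and 44 were called higher, of which 11 were the known sites, 3 lay 1 nt from one and 30 lay elsewhere. The share of the region called higher was thus near that of all positions. When the libraries were scaled to the reads of the region in place of TMM, 130 nt were called higher and 199 lower, and the 11 known sites were among the former. Without log phase before heat shock only 5 of the 11 were called, nt 776, 986, 1042, 1110 and 1124. Without stationary phase all 11 were called. Without the experiment as a block, in a fit that counts differences between experiments as spread, none was called. Nor was any other of the 111579 positions.

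**Figure D1:**
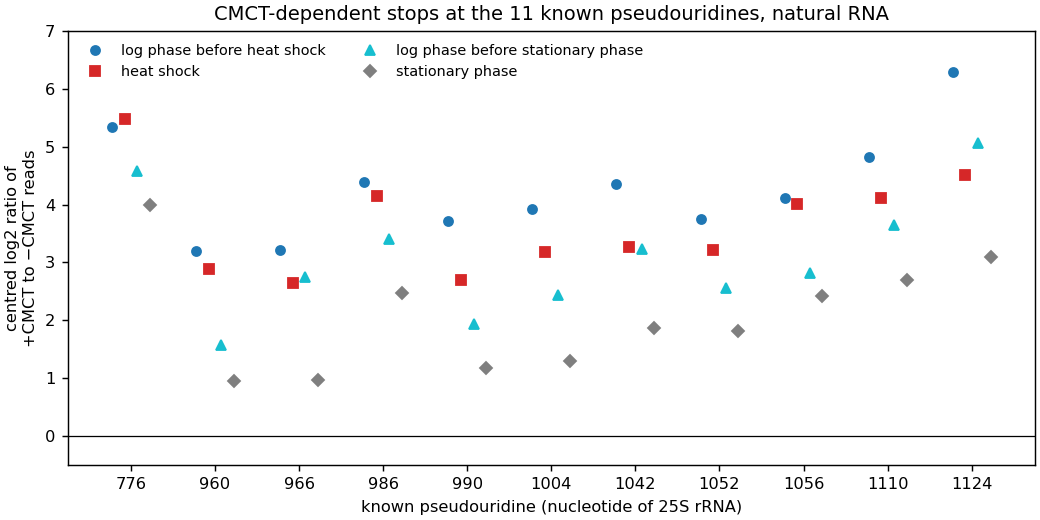
Centred log2 ratio of +CMCT to −CMCT reads in natural RNA (y axis) at each of the 11 known pseudouridines (x axis), with 1 point per experiment and no error bars, since each point is 1 pair of libraries. Every point lies above 0, from 0.95 at nt 960 in stationary phase to 6.30 at nt 1124 in log phase before heat shock.

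Ranked by this ratio among the nucleotides with at least 20 natural reads, the 11 highest included 10 known sites of 1364 nt ranked in log phase before heat shock. They included 8 of 1417 in heat shock, 4 of 1372 in log phase before stationary phase and 5 of 1411 in stationary phase. The lowest ranked known site was nt 960 at rank 12, nt 966 at rank 17, nt 960 at rank 115 and nt 960 at rank 176 in the same order. In log phase before heat shock nt 960 tied with the unmarked nt 314, both at an uncentred log2 ratio of 2.74. Ties were ordered by position, which put nt 314 at rank 11 and left nt 960 out of the 11 highest. The first unmarked nucleotide in each ranking had 0 to 11 −CMCT reads. It was nt 314 with 19 and 2 reads (+CMCT and −CMCT) in log phase before heat shock, nt 37 with 109 and 11 in heat shock, nt 342 with 158 and 5 in log phase before stationary phase and nt 917 with 38 and 0 in stationary phase. With 10 reads added to each count in place of 1, the 11 highest held 11, 9, 8 and 6 known sites.

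The site nearest the 5′ end, nt 776, stood apart from the others by 184 nt and carried the most reads of the 11 in all 4 +CMCT libraries of natural RNA. It had 6124 +CMCT and 209 −CMCT reads in log phase before heat shock, 12974 and 348 in heat shock, 10942 and 312 in log phase before stationary phase, and 20443 and 299 in stationary phase. The centred log2 ratios were 5.34, 5.49, 4.58 and 3.99, the narrowest range of the 11 sites (mean 4.85 ± 0.70, SD, n = 4 experiments). The fitted change was a log2 of 4.47 (SE 0.58, edgeR quasi-likelihood test, adjusted p = 9.2e-11). Nt 776 was the only known site with a higher ratio in heat shock than in the log phase of the same culture.

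The pair guided at nt 960 by snR8 and at nt 966 by snR43 lay at the lower end, and nt 960 had the lowest mean centred log2 ratio of the 11 sites (2.15 ± 1.07, SD, n = 4 experiments). This ratio is centred on the whole region. Unmarked nucleotides from nt 951 to 1000 also lay low, with medians from -1.29 to -1.78 in the 4 experiments. The rank of nt 960 among the sites against such local levels is not given. Nt 960 had 599 +CMCT and 89 −CMCT reads in log phase before heat shock, 951 and 155 in heat shock, 254 and 58 in log phase before stationary phase, and 280 and 33 in stationary phase. Nt 966 had 999 and 148, 1729 and 334, 412 and 41, and 407 and 48 reads in the same order. The 3′ site of the pair thus had more +CMCT reads in all 4 experiments, by 1.67, 1.82, 1.62 and 1.45 times. Once each was divided by its −CMCT reads the pair was close in all but log phase before stationary phase, with centred log2 ratios of 3.21 and 3.22 in log phase before heat shock, 2.88 and 2.64 in heat shock, 1.57 and 2.75 in log phase before stationary phase, and 0.95 and 0.96 in stationary phase. The fitted changes were a log2 of 1.80 (SE 0.43) at nt 960 and 2.03 (SE 0.44) at nt 966, with adjusted p-values of 0.0046 and 0.0013.

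Of the pair at nt 986 and nt 990, 4 nt apart, the 5′ site gave the stronger stop. Nt 986, which shares its guide snR8 with nt 960, had 1852 +CMCT and 121 −CMCT reads in log phase before heat shock, 4206 and 284 in heat shock, 2795 and 180 in log phase before stationary phase, and 2473 and 103 in stationary phase. Nt 990 had 599 and 62, 1230 and 228, 217 and 38, and 240 and 24 reads. The +CMCT reads at nt 986 exceeded those at nt 990 by 3.09 and 3.42 times in the culture that was heat shocked and by 12.9 and 10.3 times in the culture taken to stationary phase. The centred log2 ratio was lower at nt 990 in all 4 experiments, by 0.67, 1.46, 1.47 and 1.30, so that the order of the pair held after the −CMCT reads were taken into account. The fitted changes were a log2 of 3.23 (SE 0.49) and 2.03 (SE 0.44), with adjusted p-values of 7.9e-08 and 0.0011.

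The next sites, nt 1004 and nt 1042, stand 14 and 10 nt from their nearest known neighbours. Nt 1004 had 924 +CMCT and 83 −CMCT reads in log phase before heat shock, 1965 and 261 in heat shock, 268 and 33 in log phase before stationary phase, and 282 and 26 in stationary phase. Nt 1042 had 962 and 64, 1688 and 211, 463 and 33, and 605 and 38 reads. The centred log2 ratio at nt 1004 was 3.93, 3.18, 2.44 and 1.29 in the same order, and at nt 1042 it was 4.36, 3.26, 3.22 and 1.86. The fitted changes were a log2 of 2.36 (SE 0.45) and 2.81 (SE 0.45), with adjusted p-values of 0.00011 and 1.2e-06.

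At nt 1052 and nt 1056, again 4 nt apart, the 3′ site gave the stronger stop. Nt 1052 had 3077 +CMCT and 317 −CMCT reads in log phase before heat shock, 6839 and 883 in heat shock, 2907 and 338 in log phase before stationary phase, and 2889 and 191 in stationary phase. Nt 1056 had 5200 and 416, 12559 and 937, 10877 and 1058, and 10135 and 443 reads. The ratio of +CMCT reads at nt 1056 to those at nt 1052 was 1.69 and 1.84 in the culture that was heat shocked and 3.74 and 3.51 in the other. After division by the −CMCT reads the difference was smaller but kept its direction, with a centred log2 ratio higher at nt 1056 by 0.37, 0.79, 0.26 and 0.60. The fitted changes were a log2 of 2.45 (SE 0.48) at nt 1052 and 2.96 (SE 0.53) at nt 1056, with adjusted p-values of 0.00027 and 3.0e-05.

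The pair nearest the 3′ end of the cluster was nt 1110 and nt 1124. Nt 1110 had 1877 +CMCT and 91 −CMCT reads in log phase before heat shock, 2328 and 161 in heat shock, 2584 and 140 in log phase before stationary phase, and 2073 and 74 in stationary phase. Nt 1124, which shares its guide snR5 with nt 1004, had 2722 and 47, 2270 and 119, 2161 and 43, and 1753 and 47 reads. The reads at nt 1124 were thus more numerous than at nt 1110 only in log phase before heat shock. The centred log2 ratio was higher at nt 1124 in all 4 experiments, at 6.30, 4.51, 5.07 and 3.09 against 4.82, 4.11, 3.65 and 2.69. The fitted changes were a log2 of 3.45 (SE 0.49, adjusted p = 5.5e-09) at nt 1110 and 4.37 (SE 0.52, adjusted p = 8.4e-13) at nt 1124. Sites that share a guide differed in this ratio, which is centred on the whole region. Nt 960 and nt 986 under snR8, and nt 1004 and nt 1124 under snR5, were more than 1 apart in every experiment. The surroundings of the snR5 sites also differed. Unmarked nucleotides from nt 1001 to 1050 had medians of -1.37, -1.64, -1.52 and -1.82 in the same order of experiments. From nt 1101 to 1150 the medians were -0.095, -0.74, -0.21 and -0.70. The distance between nt 1004 and nt 1124 was not measured against these local levels.

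Together the 11 sites took 21.7% of the region's +CMCT reads in log phase before heat shock (95% Wilson interval 21.4% to 21.9%), 17.5% in heat shock (17.4% to 17.6%), 12.4% in log phase before stationary phase (12.3% to 12.5%) and 5.65% in stationary phase (5.60% to 5.70%). In the −CMCT libraries of natural RNA they took 1.24%, 1.49%, 1.19% and 0.915%. The share was higher with CMCT in 4 of 4 experiments, by a mean of 13.1 percentage points. An exact paired permutation test gave a two-sided p = 0.13, the smallest that 4 pairs allow. Reads were not counted by molecule, so the intervals here cover counting error only.

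The IVT RNA was made without pseudouridine, and its libraries also held reads at these sites. The share of the region's reads at the 11 sites was 10.3% in the IVT +CMCT library of log phase before heat shock (95% Wilson interval 9.03% to 11.8%), 3.56% in heat shock (3.04% to 4.15%), 4.14% in log phase before stationary phase (3.52% to 4.87%) and 1.78% in stationary phase (1.55% to 2.03%). In the IVT −CMCT libraries it was 2.78% (1.60% to 4.79%), 5.37% (4.33% to 6.65%), 2.36% (1.80% to 3.10%) and 0.997% (0.831% to 1.20%). The IVT share was higher with CMCT in 3 of 4 experiments and lower in heat shock, with a mean difference of 2.07 percentage points (exact paired permutation test, two-sided p = 0.50). In log phase before heat shock the IVT reads at nt 776 numbered 49 with CMCT and 3 without, and at nt 1124 they numbered 25 and 0. The source of these reads was not tested.

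**Figure D2:**
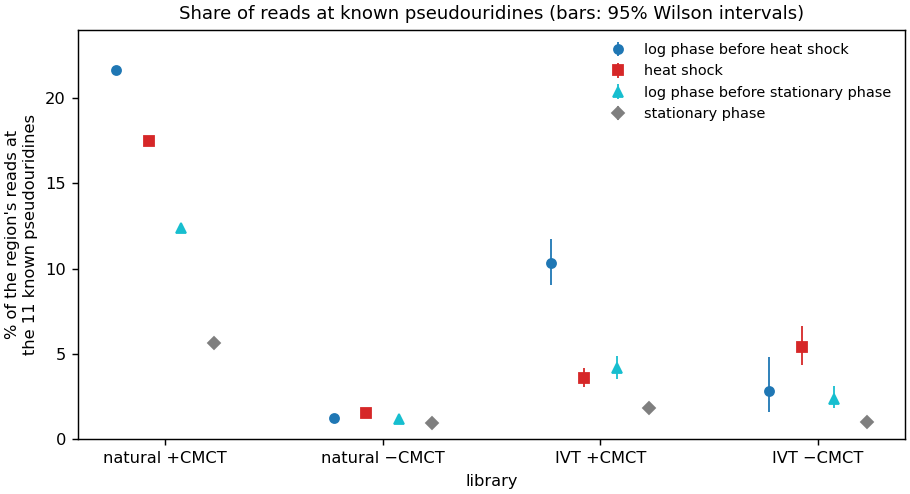
Share of the region's reads that lay at the 11 known pseudouridines (y axis, percent) in each kind of library (x axis), with 1 point per experiment and bars for the 95% Wilson interval, which is narrower than the symbol in natural RNA. Natural +CMCT libraries range from 5.65% to 21.7% and natural −CMCT libraries from 0.915% to 1.49%, while IVT libraries with and without CMCT overlap.

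The study used the IVT RNA as its control, so the change with CMCT was also compared between natural and IVT RNA over all 16 libraries. Of the 11 known sites, 10 had a larger change in natural RNA, with a median log2 difference of 1.15, against -0.89 over the 1434 nt of the region tested. Only nt 776, the snR80 site, was called, with a log2 difference of 3.17 (SE 0.56, edgeR quasi-likelihood test, adjusted p = 0.0011). Of the 210740 positions tested, 0.00332% were called higher and 0.00569% lower. The next sites by p were nt 1110 at 3.12 (SE 0.70, adjusted p = 0.070) and nt 986 at 2.51 (SE 0.67, adjusted p = 0.35). Nt 990 had a log2 difference of -0.11. It had 0 to 6 reads in each IVT library, too few for a precise value. The call of nt 776 was lost without heat shock (adjusted p = 1.00) and without log phase before stationary phase (adjusted p = 0.33), and DESeq2 called 4 of the known sites.

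Nt 1024, 1029 and 1035, all unmarked, were called lower in that comparison, which means that their change with CMCT was smaller in natural than in IVT RNA. Nt 1024 had a log2 difference of -5.31 (SE 1.05, edgeR quasi-likelihood test, adjusted p = 0.013), nt 1035 one of -4.12 (SE 0.82, adjusted p = 0.013) and nt 1029 one of -4.30 (SE 0.89, adjusted p = 0.021). In natural RNA nt 1024 fell from 348 −CMCT to 29 +CMCT reads in log phase before heat shock, from 708 to 100 in heat shock, from 190 to 43 in log phase before stationary phase and from 99 to 67 in stationary phase. In IVT RNA it had 0 −CMCT and 1 +CMCT reads, 2 and 5, 0 and 0, and 1 and 12 in the same order. All 3 lie between nt 1004 and nt 1042, in a stretch where natural stops were generally fewer with CMCT. The 3 lower calls of the region became 0 with a minimum of 10 reads, 0 when scaled to the reads of the region, 0 without the block, 0 without heat shock, 1 without log phase before stationary phase, 2 without stationary phase, 4 without log phase before heat shock, 11 with library sizes alone and 17 with DESeq2.

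The nucleotides beside the known sites were raised less often and by less than the sites, and in stationary phase their medians were below 0. On the 5′ side, 10 of the 11 adjacent nucleotides had a centred log2 ratio above 0 in log phase before heat shock, 9 in heat shock, 8 in log phase before stationary phase and 5 in stationary phase. Their medians were 1.46, 1.47, 0.24 and -0.18. On the 3′ side the counts were 8, 7, 7 and 5, with medians of 0.72, 0.12, 0.61 and -0.24. At a distance of 2 nt the medians were all below 0, from -0.05 to -0.77 on the 5′ side and from -0.04 to -0.81 on the 3′ side. The 0 here is that of the whole region and not of the surroundings. From nt 960 to nt 1124, where 10 of the 11 sites lie, nucleotides neither known nor adjacent had lower medians of -0.97, -1.28, -1.30 and -1.53. A median below 0 beside a site therefore does not show that the stops there were at the local level. The adjacent nucleotides had a median of 4.29% to 8.17% of the +CMCT reads of their site on the 5′ side and 4.67% to 7.13% on the 3′ side.

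Of the adjacent nucleotides, 3 were called higher by edgeR's quasi-likelihood test, both neighbours of nt 776 and the 5′ neighbour of nt 1124. These 3 were nt 775 with a log2 change of 1.56 (SE 0.42, adjusted p = 0.014), nt 777 with 1.52 (SE 0.43, adjusted p = 0.021) and nt 1123 with 1.95 (SE 0.42, adjusted p = 0.0013). Nt 1123 had 188 +CMCT and 35 −CMCT reads in log phase before heat shock, 213 and 54 in heat shock, 248 and 27 in log phase before stationary phase, and 209 and 16 in stationary phase. Nt 959 and 961 on either side of nt 960 were called lower in the same test. Their log2 changes were -1.48 (SE 0.41) and -1.53 (SE 0.42), with adjusted p-values of 0.019 and 0.017. Of the unmarked nucleotides from nt 951 to 1000, 29 of the 38 tested were also called lower. These calls are thus not particular to the neighbours of nt 960. An adjacent nucleotide exceeded its known site in +CMCT reads only at nt 1005, beside nt 1004, and only in the culture taken to stationary phase. Nt 1005 had 1738 and 1663 +CMCT reads there against 268 and 282 at nt 1004, with 712 and 458 −CMCT reads, and 282 and 387 +CMCT reads in the culture that was heat shocked.

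**Figure D3:**
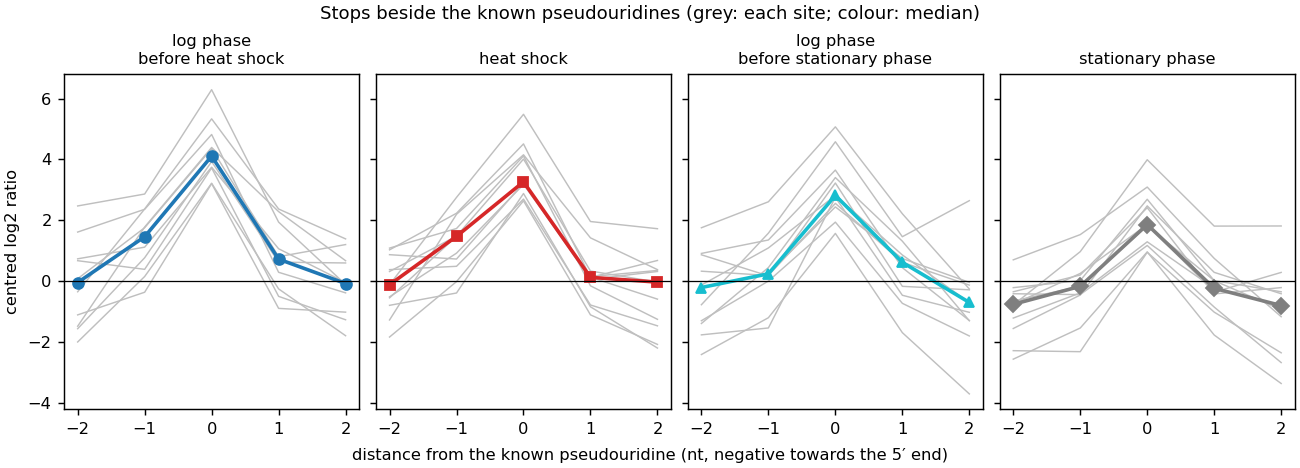
Centred log2 ratio of +CMCT to −CMCT reads in natural RNA (y axis) from 2 nt on the 5′ side to 2 nt on the 3′ side of the known pseudouridines (x axis), with 1 panel per experiment, grey lines for each of the 11 sites and coloured lines for their median. The median peaks at the site in all 4 panels, at 4.11, 3.26, 2.81 and 1.86, and is below 0 at a distance of 2 nt. The 0 is the level of a typical nucleotide of the whole region, not of the surroundings of the sites.

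Among the nucleotides neither known nor adjacent, few had a raised ratio in every experiment. Of 1290 such nucleotides with at least 20 natural reads in every experiment, 42 had a centred log2 ratio above 1 in all 4, as did 9 of the 11 known sites. The 5 with the highest lowest value were nt 662, 380, 507, 897 and 447, at 2.02, 1.73, 1.70, 1.68 and 1.68, and 5 known sites had a lowest value above 2.02. Nt 662 had 68 +CMCT and 17 −CMCT reads in log phase before heat shock, 145 and 19 in heat shock, 65 and 9 in log phase before stationary phase, and 208 and 11 in stationary phase. Their fitted log2 changes were 2.15 (SE 0.45), 1.96 (SE 0.46), 1.53 (SE 0.43), 1.98 (SE 0.43) and 1.69 (SE 0.44). They were chosen by the ratio in the same natural libraries, so these values are a description and no test is given. IVT libraries held 0 to 14 reads at these 5 nucleotides. No genome sequence was used here, so whether they are uridines is not stated.

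The unmarked nucleotides of the densely modified stretch from nt 960 to nt 1124 gave fewer stops after CMCT treatment. This stretch, bounded by the outermost of the 10 closely spaced sites, contains 137 nucleotides neither known nor adjacent, and 1280 lie outside it. Their median centred log2 ratio was -0.97 in log phase before heat shock, -1.28 in heat shock, -1.30 in log phase before stationary phase and -1.53 in stationary phase. Outside the stretch it was 0.08, 0.11, 0.08 and 0.08. Below 0 lay 78.8%, 90.5%, 86.9% and 97.1% of the 137 nucleotides, against 45.5% to 46.3% of the others.

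In the fit over natural libraries 137 nt of the region were called lower with CMCT, and 85 of them were among the 137 nt tested inside the stretch (62.0%), while 50 of 1263 were called outside it (3.96%). Of all positions tested 0.593% were called lower. The median fitted log2 change was -1.73 inside and -0.26 outside. The nucleotides with the smallest p were nt 953, 1024, 952, 1029 and 970, with log2 changes of -3.14, -3.14, -3.12, -2.94 and -3.09 and adjusted p-values from 4.6e-09 to 1.7e-07. Nt 953, which lies 7 nt to the 5′ side of nt 960, had 258 −CMCT and 33 +CMCT reads in log phase before heat shock, 488 and 91 in heat shock, 288 and 57 in log phase before stationary phase, and 180 and 68 in stationary phase. The calls depended on the libraries, since without log phase before heat shock 20 nt inside and 5 outside were called, without heat shock 34 and 11, and without stationary phase 113 and 352. The median change inside stayed between -1.59 and -2.04 in these fits.

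Along the region in bins of 50 nt, the median of the unmarked nucleotides was below -1.2 in all 4 experiments from nt 951 to 1050 and in no other bins. From nt 951 to 1000 it was -1.34, -1.29, -1.67 and -1.78, and from nt 1001 to 1050 it was -1.37, -1.64, -1.52 and -1.82. On the 5′ side the bin from nt 901 to 950, which has no known site, was at -0.41, -0.67, -0.64 and -0.76, and on the 3′ side the bin from nt 1151 to 1200 had returned to 0.41, -0.17, 0.06 and 0.01. Around the isolated site at nt 776 the bin from nt 751 to 800 was at 0.04, 0.04, -0.29 and -0.36. The bins from nt 901 to 1150 held 19, 29, 32, 19 and 10 nucleotides called lower, and no other bin held more than 5.

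In IVT RNA the stretch did not lose reads with CMCT. Its unmarked nucleotides held 9.26%, 9.56%, 4.43% and 3.67% of the reads at unmarked nucleotides of the region in the IVT +CMCT libraries, and 5.04%, 9.11%, 3.36% and 3.43% in the IVT −CMCT libraries. In natural RNA they held 5.98%, 5.55%, 3.97% and 1.69% with CMCT and 9.83%, 12.0%, 7.79% and 4.74% without. The share was thus lower with CMCT in 4 of 4 natural experiments and higher in 4 of 4 IVT experiments. The IVT shares rest on 21 to 425 reads.

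**Figure D4:**
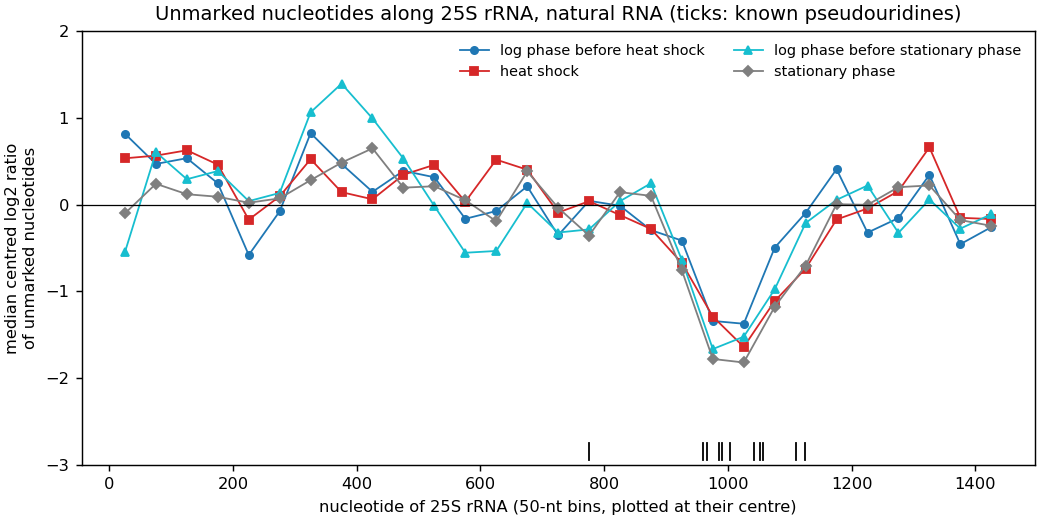
Median centred log2 ratio of +CMCT to −CMCT reads in natural RNA over the nucleotides neither known as pseudouridines nor adjacent to one (y axis), in bins of 50 nt along the region (x axis), with 1 line per experiment and ticks at the 11 known sites. All 4 lines fall below -1.2 between nt 951 and 1050, under the cluster of known sites.

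Heat shock and stationary phase each rested on 1 pair of natural libraries, so differences within a culture are given as descriptions. Within the culture that was heat shocked, the centred log2 ratio was lower after heat shock at 10 of the 11 known sites, with a median difference of -0.58 and a range from -1.78 at nt 1124 to 0.15 at nt 776. Over 1330 unmarked nucleotides the median difference was 0.07 with an SD of 0.60, and 44.9% were lower. Within the other culture, it was lower in stationary phase at 11 of 11 sites, with a median of -0.93 and a range from -1.98 at nt 1124 to -0.40 at nt 1056. Over the unmarked nucleotides the median was -0.13 with an SD of 0.91, and 56.1% were lower. The study itself found known rRNA sites less enriched in stationary phase. It judged those libraries to be of lower technical quality and left them out of its further work. Growth and library quality cannot be told apart here.

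The samples of one condition differed by as much. Between the log-phase experiments the ratio was higher before heat shock at 11 of 11 sites, by a median of 1.19 and from 0.46 at nt 966 to 1.78 at nt 990. The fall in stationary phase also depended on the centring, since the uncentred medians of the 11 were 3.36 in log phase before stationary phase and 3.96 in stationary phase. The corresponding values were 3.64 in log phase before heat shock and 2.99 in heat shock.

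When heat shock and stationary phase were each compared with both log-phase experiments by edgeR's quasi-likelihood test, no nucleotide of the region was called for either. Of the positions tested, 0% were called higher and 0.000896% lower for heat shock, and 0% in either direction for stationary phase. The smallest p among the known sites was at nt 1124 in both comparisons, with a log2 difference of -1.51 (SE 0.87, adjusted p = 1.00) in heat shock and -1.27 (SE 0.89, adjusted p = 0.98) in stationary phase. At an unadjusted p under 0.05 the region had 1 nucleotide higher and 22 lower in heat shock, and 354 higher and 0 lower in stationary phase, none of them a known site. Over all positions the stationary phase counts were 4758 higher and 957 lower. The balance in stationary phase turned with the scaling, to 32 higher and 4 lower in the region with library sizes alone and to 6 higher and 25 lower when scaled to the reads of the region. DESeq2 called 0 and 1. Each of these conditions was assumed to vary as the log-phase experiments did. On simulated data, in which only the stationary phase term was changed, this fit recovered few of the changes. The heat shock term was not simulated and likewise rests on 1 pair of natural libraries. For neither condition can the absence of calls be read as the absence of a difference.

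Without CMCT, stops in natural RNA gathered at a few nucleotides, first of all at nt 645. Nt 645 took 4.82% of the region's −CMCT reads in log phase before heat shock (95% Wilson interval 4.71% to 4.94%), 5.76% in heat shock (5.68% to 5.85%), 1.55% in log phase before stationary phase (1.5% to 1.61%) and 3.09% in stationary phase (3.0% to 3.18%). These were 6399, 15160, 2973 and 4478 reads, whereas the median nucleotide of the region took 0.042%, 0.044%, 0.027% and 0.034% of the reads. It ranked first in 3 experiments and at rank 4 in log phase before stationary phase. In the IVT −CMCT libraries it took 0.926% (0.361% to 2.36%), 2.04% (1.43% to 2.90%), 0.897% (0.575% to 1.40%) and 1.01% (0.839% to 1.20%), from 4, 30, 19 and 116 reads. The share was higher in natural than in IVT RNA in 4 of 4 experiments, by a mean of 2.59 percentage points (exact paired permutation test, two-sided p = 0.13, the smallest possible). Nt 645 was taken for this test because its mean natural −CMCT share was the highest of the region. That choice favours a higher share in natural RNA, so the difference is a description.

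The nucleotides next to nt 645 took smaller shares than nt 645 itself in all 4 experiments. On its 5′ side nt 644 took 0.525%, 0.495%, 0.291% and 0.215% of natural −CMCT reads and on its 3′ side nt 646 took 0.216%, 0.197%, 0.606% and 0.962%, while nt 642, 643 and 647 took 0.014% to 0.062%. Nt 648, 3 nt to the 3′ side, took 0.308%, 0.287%, 2.66% and 0.895%, which was more than nt 645 in log phase before stationary phase. Nt 644 was the more frequent of the neighbours in the culture that was heat shocked, and nt 646 in the other. The centred log2 ratio at nt 645 was -0.26, -0.60, -0.03 and -1.08, below 0 in all 4 experiments, in contrast to the known pseudouridines.

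Ranked by the mean share of natural −CMCT reads, nt 645 was followed by nt 208, 648, 788, 1272, 1389, 1372 and 782. These 8 nucleotides together took 8.43%, 8.96%, 12.9% and 7.51% of natural −CMCT reads and 3.94%, 5.65%, 8.78% and 5.08% of IVT −CMCT reads. Their joint share was higher in natural RNA in 4 of 4 experiments (exact paired permutation test, two-sided p = 0.13, the smallest possible). They were chosen by their share in natural RNA, which favours that direction, so the difference from IVT RNA is a description and the test decides nothing. Nt 208 took 0.681%, 0.543%, 2.67% and 1.34% in natural RNA and 1.39%, 0.476%, 3.12% and 2.08% in IVT RNA, the latter from 6, 7, 66 and 240 reads. Stops at nt 208 were thus also read in the IVT libraries. So were stops at nt 645, the strongest IVT −CMCT stop in heat shock. The source of the IVT reads was not tested. Nt 648, given above, and nt 788, with 0.412%, 0.372%, 1.93% and 0.780%, were both higher in the culture taken to stationary phase in either of its samples. Nt 1372 went the other way, with 0.732%, 0.654%, 0.645% and 0.205%. Nt 645 and nt 1372 held ranks 1 and 2 in both samples of the heat-shocked culture, whereas nt 208 held rank 1 in the log phase and rank 2 in the stationary phase of the other.

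**Figure D5:**
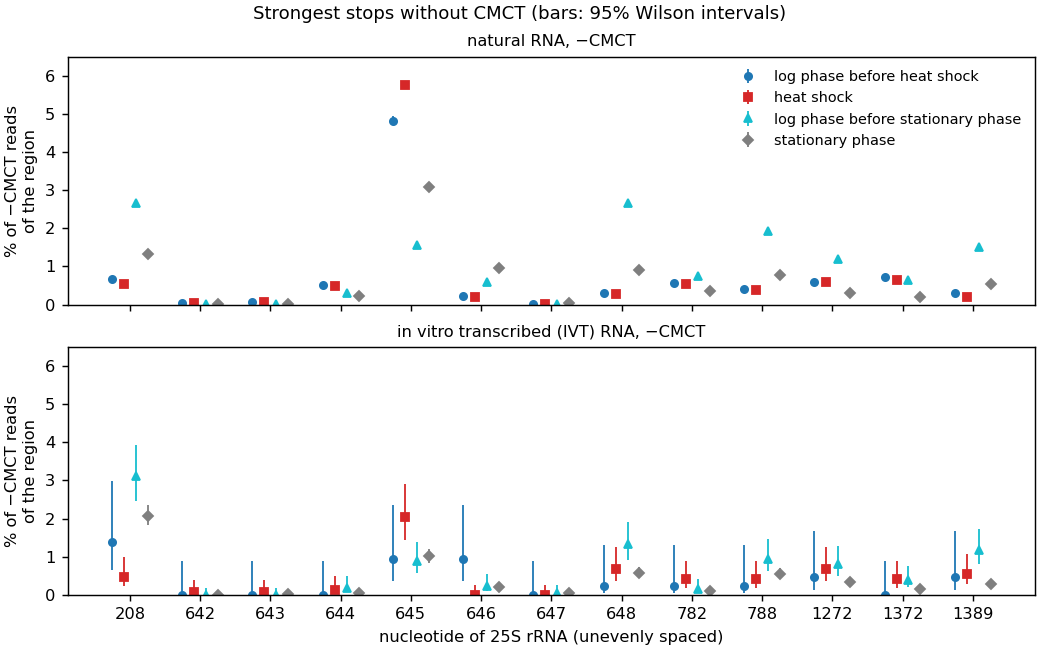
Share of the region's −CMCT reads (y axis, percent) at the 8 nucleotides with the highest mean share in natural RNA and at the nucleotides within 3 nt of nt 645 (x axis, unevenly spaced), in natural RNA (upper panel) and IVT RNA (lower panel), with 1 point per experiment and bars for the 95% Wilson interval. Nt 645 reaches 5.76% in natural RNA and at most 2.04% in IVT RNA.

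A fit of natural against IVT RNA over the 8 −CMCT libraries also took in the amount of rRNA, which differed between them. It called 1364 of the 1384 nucleotides tested higher in natural RNA and 0 lower, with a median log2 difference of 6.02 over the region, while 5.86% of all 79122 positions tested were called higher and 5.42% lower. The largest share of listed reads in the region was 3.24% in a natural −CMCT library and 0.085% in an IVT −CMCT library. Nt 645 had the smallest p of all positions of the region, with a log2 difference of 7.64 (SE 0.78, edgeR quasi-likelihood test, adjusted p = 1.4e-17), and the 11 known sites had differences from 4.12 to 6.72, with a median of 5.30. When the libraries were scaled to the reads of the region, which removes the difference in amount, the log2 difference at nt 645 was 1.55 (SE 1.00, adjusted p = 0.13), and it was not called. Nt 208 and nt 1389, at -0.42 (SE 1.03) and -0.14 (SE 1.16), then lay on the other side of 0.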

How the data were processed

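PSI-seq maps where reverse transcription stops on RNA treated with CMCT or mock treated. The authors aligned reads with Bowtie 0.12.5 to sacCer3, per the submitters' processing notes, and deposited raw counts of reads per position, with neither strand nor base and without normalization. The methods state that reads with several matches were assigned at random and that rRNA reads of the same loci were combined. All 1450 nt had equal counts at both listed rDNA copies.

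Nucleotides were numbered downwards from the deposited position 455182, which is nt 1. Log2 ratios used counts plus 1 read. Known pseudouridines are those marked in the study's rRNA table. Counts were fitted with edgeR 4.0.16 (R 4.3.3), TMM normalization, over all positions with at least 50 reads summed over the fitted libraries, equal-count positions taken once, with Benjamini-Hochberg adjustment and calls at an adjusted p under 0.05. The experiment was a block because each RNA was divided into +CMCT and mock parts. An SE given here is the absolute log2 change divided by the square root of the F statistic of the edgeR test. It is approximate, and unreliable where the change is small. Each fit was tested on simulated data drawn from 1 mean profile, without differences between experiments. There the growth-condition fit, simulated for stationary phase only, recovered few of the changes. DESeq2 1.42.0, other scalings, filters and leaving out experiments were alternatives. Exact paired permutation tests and Wilson intervals used scipy 1.17.1.

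Named nucleotides were the known sites with those up to 2 nt away, the 8 with the highest mean natural −CMCT share and those within 3 nt of the first, the 5 unmarked with the highest lowest ratio, and the called nucleotides with the smallest p. Others are named where a ranking or count required it, after their values were seen. The members and lists were chosen with earlier results of these data known. Deposited log-phase columns name the later fate of the culture, and replicate numbers were not used.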

Additional observations from a re-analysis of the deposited data

How the results depend on the processing

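All 11 known pseudouridines were called higher with CMCT in natural RNA under library sizes alone, a minimum of 10 reads, DESeq2, every listed position kept, and scaling to the reads of the region, an alternative chosen after seeing the data. That scaling moved the median log2 change over all positions from 0.24 to 0.56. The 11 became 0 with no replicate block, which ignores the pairing of the +CMCT and −CMCT parts of each RNA, and 5 to 11 when an experiment was left out. The 137 nt called lower became 388 with library sizes alone, 91 with a minimum of 10 reads, 246 with DESeq2, 210 with every listed position, 0 with no replicate block and 25 to 469 when an experiment was left out. In the comparison of natural with IVT RNA the 1 known site called became 4 with library sizes alone, 2 with a minimum of 10 reads, 4 with DESeq2, 0 when scaled to the region, 0 with no replicate block and 0 to 2 when an experiment was left out. For stationary phase against log phase DESeq2 called 1 nt in place of 0. Leaving out a log-phase experiment there left no residual degrees of freedom and was not run.

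Without CMCT, scaling to the reads of the region lowered the nucleotides called between natural and IVT RNA from 1364 to 39, of which 9 were higher and 30 lower in natural RNA, and the construction of that scaling removes the difference in rRNA amount. The log2 difference then turned to -2.02 at nt 776, -0.13 at nt 960, -0.42 at nt 966, -1.18 at nt 986, -1.0 at nt 1004, -0.91 at nt 1056, -1.59 at nt 1110 and -1.69 at nt 1124, none called. Centred on the unmarked nucleotides within 50 nt, the median ratio of the known sites was 5.21, 4.55, 4.06 and 3.18 in the 4 experiments. Without centring it was 3.96 in stationary phase. With 10 reads added, 8 known sites were among the 11 highest ratios in log phase before stationary phase. The cause of the other differences was not tested. IVT depth limits any ratio at 1 nucleotide of that RNA.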
